A study of Mus musculus with 6 samples.

Results

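Polycomb group genes were followed in follicular B cells that carry 1 or no functional allele of Myh9, the gene of the myosin IIa heavy chain. The 9 genes were Cbx7, Cbx6, Cbx8, Ring1, Rnf2 and Bmi1 of Polycomb repressive complex 1 (PRC1) and Ezh1, Ezh2 and Suz12 of Polycomb repressive complex 2 (PRC2). They were found by name among the 20458 gene names of the table that the authors deposited, and they hold 11 of its 25017 entries, each entry standing for the transcripts that share a coding sequence. Cbx7 was chosen from its measured values in the comparison described here, and the other genes were added because they encode subunits of the same complexes, so all values below are a description. Follicular B cells, sorted as B220+AA4.1-CD23+CD21lo from C57BL/6 mice, gave 3 samples of amplified RNA from CD23Cre+Myh9wt/fl animals and 3 from CD23Cre+Myh9fl/fl animals. Both genotypes express Cre recombinase from the CD23 promoter, which is active from the splenic transitional stage onward. LoxP sites surround exon 3 in 1 Myh9 allele of wt/fl mice and in both alleles of fl/fl mice. The controls were therefore haploinsufficient, and no wild-type cells were compared. The authors pooled the 3 samples of a genotype into 1 value per entry in FPKM, which corrects fragment counts for transcript length and library size. No spread between samples can therefore be given, and no difference below has a replicate check or a test.

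Polycomb complexes keep genes silent through histone modifications. PRC2 methylates histone H3 through its catalytic subunit EZH1 or EZH2, which works only together with SUZ12 and EED. PRC1 ubiquitinates histone H2A through RING1 or RNF2 (also called RING1B), paired with a PCGF protein such as BMI1. In canonical PRC1, a CBX protein binds methylated H3 with its chromodomain and so brings PRC1 to sites that PRC2 has marked, whereas variant PRC1 holds RYBP or YAF2 in place of CBX. CBX7 and BMI1 are known as repressors of the Cdkn2a locus, which encodes inhibitors of cell proliferation. In the B cell lineage, EZH2 is abundant in dividing precursors and germinal center B cells, and EZH1 is the form associated with resting cells.

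The deleted gene was checked first. Myh9 (chromosome 15, 77591018 to 77672545 in mm9) was measured at 50.6 FPKM in wt/fl compared with 21.1 FPKM in fl/fl cells, or 41.7% of the haploinsufficient level. The values of the table summed to 595296 FPKM in wt/fl compared with 596105 FPKM in fl/fl, and the number of reads behind them is unknown. All 9 B cell markers listed, such as Cd79a, were compared and 0 of them differed by 1.5-fold. Neutrophil markers were lower in fl/fl, 7 of 9 compared genes by 1.5-fold or more, and their summed level went from 387 FPKM in wt/fl to 73.3 FPKM in fl/fl. The most abundant of them were S100a9 (175 and 34.5 FPKM) and S100a8 (145 and 25.8 FPKM). Csf3r (2.32 and 1.51 FPKM) and Cxcr2 (5.99 and 4.96 FPKM) were also lower but within the limit. Mpo and Elane, also on this list, were not compared, being at 0 in fl/fl and under 1 FPKM in wt/fl. The erythroid markers summed to 47.3 and 6.78 FPKM, with both compared genes past the limit, and the T cell markers to 25.3 and 23.4 FPKM, with 0 of 5 past it. Of the macrophage and monocyte markers, which summed to 89.9 and 61.2 FPKM, 1 of 6 compared genes lay past the limit. This was Lyz2 (72.6 and 44.9 FPKM), which made most of the sum. By value 4 of the 6 were lower in fl/fl. The 2 that were higher were C1qb (1.61 and 2.39 FPKM) and C1qc (1.60 and 2.04 FPKM). The plasma cell markers summed to 118 and 107 FPKM, mostly from Irf4 and Xbp1, which lay within the limit. The other 2 of their 4 compared genes, Igj (0.617 FPKM in fl/fl, 11.4% of wt/fl) and Sdc1 (2.30 and 1.13 FPKM), were past it and lower. These sums moved in the same direction as Cbx7 and Cbx6, and their part in the values below was not tested.

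Cbx7, which encodes a chromodomain subunit of canonical PRC1, was at 37.6 FPKM in haploinsufficient and 23.1 FPKM in myosin IIa-deficient follicular B cells. The second value was 61.2% of the first. With 1 added to each FPKM value, the scale used for all ratios here, the log2 ratio of fl/fl over wt/fl was −0.68. Cbx7 has a single entry, on chromosome 15 from 79746236 to 79763076 (mm9). In sorted cells analyzed in bulk, fewer cells that express a gene and less RNA per cell cannot be told apart.

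**Figure D1:**
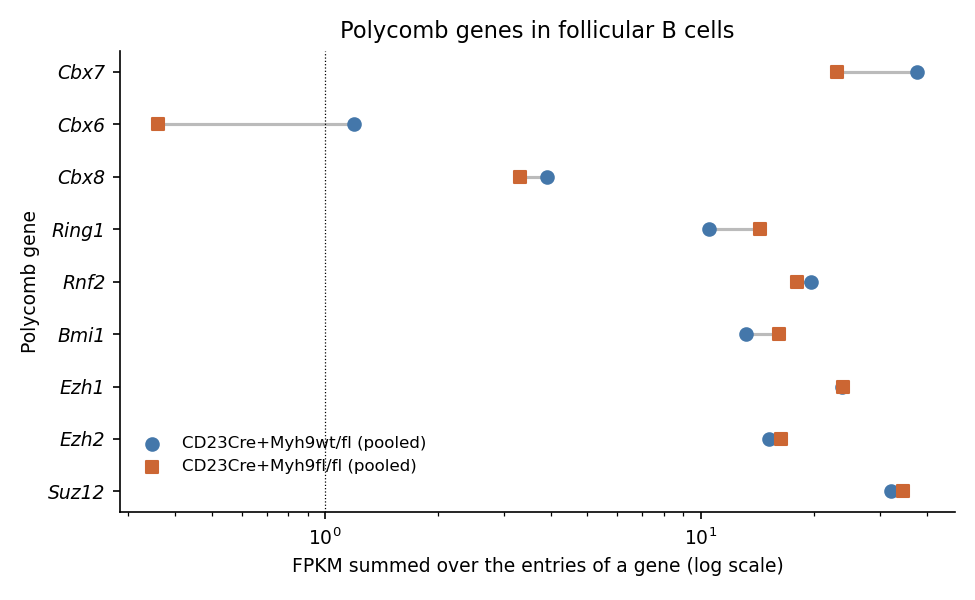
Pooled FPKM of the 9 Polycomb genes on a log axis, summed over the entries of each gene, with 1 point per genotype and no error bars since the samples were pooled. The dotted line marks 1 FPKM. Cbx7 (37.6 and 23.1 FPKM) and Cbx6 (1.19 and 0.359 FPKM) show the widest gaps, and both lie lower in fl/fl.

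A difference of 1.5-fold or more was taken as the limit for a count, among gene names with a mean of at least 1 FPKM. Of the 9866 gene names compared in this way, 229 lay past the limit, or 2.32%. Of these, 151 were lower in fl/fl (1.53%) and 78 were higher (0.791%). Among the Polycomb genes, 8 of 9 reached a mean of 1 FPKM, and 1 of the 8, Cbx7, lay past the limit. This count rests on the contrast that singled out Cbx7, so nothing is read from it. Over the 8 genes the median log2 ratio was 0.055, beside 0.0026 for all compared genes. For the position of Cbx7, 96 of the compared gene names had a lower ratio. The share past the limit varied with level. Of the 2137 gene names with a mean from 1 to 5 FPKM, 6.36% lay past the limit, as did 0.829% of the 2291 with a mean from 20 to 50 FPKM, the range of Cbx7. It was 1.34% of the 3965 from 5 to 20 FPKM and 1.43% of the 1473 at 50 FPKM or more. Among those from 20 to 50 FPKM, 10 gene names were lower by 1.5-fold or more, Cbx7 among them.

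**Figure D2:**
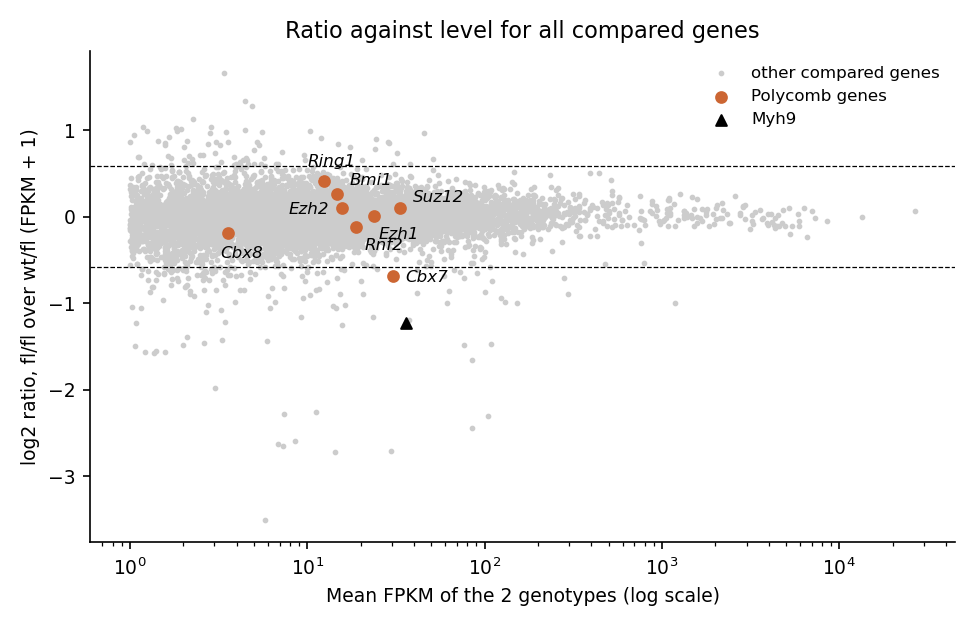
Log2 ratio of fl/fl over wt/fl (FPKM + 1) against the mean FPKM of both genotypes (log axis) for the 9866 compared gene names in grey, with 8 Polycomb genes in orange and Myh9 as a triangle. Dashed lines mark 1.5-fold. Cbx7 lies below the lower line at −0.68, and the other 7 Polycomb genes lie between the lines.

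Cbx6 and Cbx8 encode other chromodomain subunits of canonical PRC1. Cbx6 was at 1.19 FPKM in wt/fl compared with 0.359 FPKM in fl/fl cells, with a mean under 1 FPKM and a log2 ratio of −0.69 that depends on the pseudocount. The deposited position of Cbx6, chromosome 15 from 79616780 to 79664763 (mm9), is shared with the entries of Nptxr and Npcd, and fragments of overlapping genes could have been split between them. Cbx8, on chromosome 11 from 118899749 to 118902227, was at 3.90 FPKM in wt/fl compared with 3.30 FPKM in fl/fl cells (log2 ratio −0.19). Cbx2, a further Polycomb chromodomain gene, was at 0.495 and 0.407 FPKM. Thus these 4 genes were all lower in fl/fl by value, with Cbx7 past the limit and Cbx8 within it, and the others under a mean of 1 FPKM. Of the summed level of these 4 genes, Cbx7 made up 87.1% of 43.2 FPKM in wt/fl and 85.01% of 27.1 FPKM in fl/fl. Cbx8, Cbx6 and Cbx2 together were at 5.58 FPKM in wt/fl compared with 4.06 FPKM in fl/fl, so Cbx7 exceeded them 6.74 times in wt/fl and 5.67 times in fl/fl.

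The sequences before the start sites of the 3 chromodomain genes among the 9 are shown, since they include both genes that were lowest relative to wt/fl. Each run holds the 250 bases before the RefSeq start on build GRCm38.p6, from 5′ to 3′ on the strand of the gene, and capitals mark CG dinucleotides, the sequence that KDM2B of variant PRC1 binds when unmethylated. The runs lie at chr15:79932647-79932896 (minus strand) for Cbx7, at chr15:79834334-79834583 (minus strand) for Cbx6 and at chr11:119040914-119041163 (minus strand) for Cbx8.
Cbx7: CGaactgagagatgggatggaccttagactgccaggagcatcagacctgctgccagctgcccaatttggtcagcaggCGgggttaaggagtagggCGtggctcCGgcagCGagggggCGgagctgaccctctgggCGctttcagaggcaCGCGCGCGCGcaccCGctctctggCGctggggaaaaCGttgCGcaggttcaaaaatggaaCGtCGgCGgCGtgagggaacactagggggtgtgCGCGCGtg
Cbx6: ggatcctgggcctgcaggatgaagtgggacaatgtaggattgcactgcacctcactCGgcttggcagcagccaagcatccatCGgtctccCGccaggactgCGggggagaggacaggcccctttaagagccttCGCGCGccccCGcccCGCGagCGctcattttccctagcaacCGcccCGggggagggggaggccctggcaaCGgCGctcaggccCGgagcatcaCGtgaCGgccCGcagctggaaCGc
Cbx8: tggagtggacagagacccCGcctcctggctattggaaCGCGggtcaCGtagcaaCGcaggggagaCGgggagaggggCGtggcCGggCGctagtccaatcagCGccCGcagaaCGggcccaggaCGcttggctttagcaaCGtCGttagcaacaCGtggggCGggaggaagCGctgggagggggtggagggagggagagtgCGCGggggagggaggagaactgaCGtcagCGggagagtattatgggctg
All 9 genes had a promoter in the RefSeq set, with a window of 300 bases that reaches past the start. The windows of the 9 genes held 23 to 41 CG dinucleotides, with 33 in Cbx7, 31 in Cbx6 and 24 in Cbx8, whereas the median over all 32851 promoters was 7. Of all promoters, 91.4% held fewer CG dinucleotides than that of Cbx7. Thus high CG content was shared by all 9 genes, whether lower or higher in fl/fl. The letters CACGTG, the same on both strands and bound by MAX dimers such as MGA and MAX of variant PRC1, were found in the windows of Cbx6, Cbx8 and Bmi1, and in 7.15% of all promoters. The letters TTTGGCGC, an E2F motif searched on both strands, were found in the window of Ezh2 and in 0.514% of all promoters. Neither was found in the window of Cbx7.

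Ring1 and Rnf2 encode the ubiquitin ligase subunits of PRC1, and every PRC1 holds either of them. Ring1, on chromosome 17 from 34157736 to 34161625, was at 10.6 FPKM in wt/fl compared with 14.4 FPKM in fl/fl cells, giving a log2 ratio of 0.42 and the highest of the 9 genes. Rnf2, on chromosome 1 from 153316535 to 153347953, was at 19.7 and 18.1 FPKM (log2 ratio −0.12). Both lay within the limit, and together they made 30.3 FPKM in wt/fl compared with 32.5 FPKM in fl/fl. Ring1 made up 34.8% of this sum in wt/fl cells and 44.3% in fl/fl cells. Bmi1, which encodes a PCGF partner of the ligase, lies on chromosome 2 from 18598644 to 18608256 and was at 13.2 FPKM in wt/fl compared with 16.2 FPKM in fl/fl cells (log2 ratio 0.27). Bmi1 made 23.9% of the summed PCGF level in wt/fl and 26.2% in fl/fl. For comparison, 97.7% of the compared gene names had a lower ratio than Ring1 and 93.2% had a lower ratio than Bmi1.

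**Figure D3:**
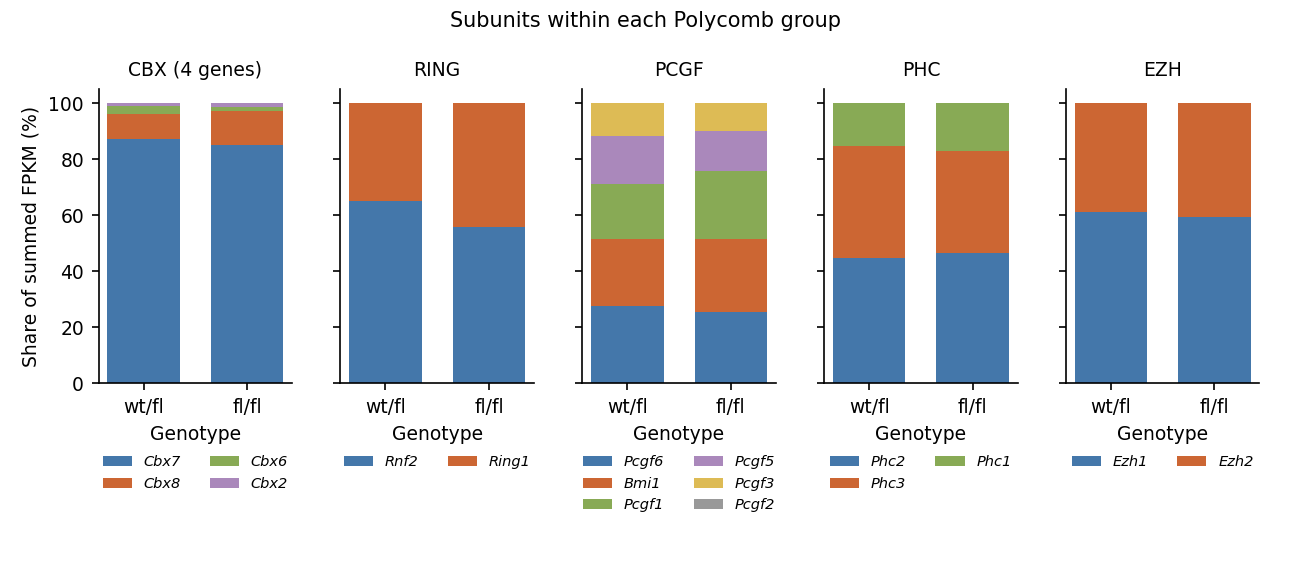
Share of each gene in the summed FPKM of its group (0 to 100%) in pooled wt/fl and fl/fl cells, for 4 CBX genes and the RING, PCGF, PHC and EZH genes. Cbx7 is the largest part of the CBX bar (87.1% and 85.01%), and the RING bar shifts from Rnf2 toward Ring1 (34.8% and 44.3%).

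Among the PRC2 genes, Ezh1, which encodes a catalytic subunit, was at 23.9 FPKM in wt/fl compared with 24.0 FPKM in fl/fl cells. Its log2 ratio of 0.0095 had the opposite sign under upper quartile scaling (−0.0065). Ezh2, the other catalytic subunit gene, was at 15.2 and 16.4 FPKM when its 2 entries were summed (log2 ratio 0.10). Ezh1 thus exceeded Ezh2 1.57 times in wt/fl and 1.46 times in fl/fl, on a scale that corrects for transcript length. The larger Ezh2 entry was at 13.9 FPKM in wt/fl compared with 14.2 FPKM in fl/fl. The smaller one was at 1.29 and 2.22 FPKM, or 8.49% and 13.5% of the gene, so most of the small difference lay in the minor coding sequence. Suz12, the scaffold of PRC2, was at 32.2 and 34.6 FPKM (log2 ratio 0.10) and also has 2 entries, at 26.6 and 27.6 FPKM and at 5.61 and 7.02 FPKM. The entries of a gene share most of their exons, and the split of fragments between them is an estimate. Ezh1 lies on chromosome 11 from 101052428 to 101087764, Ezh2 on chromosome 6 from 47480272 to 47545029 and Suz12 on chromosome 11 from 79806607 to 79847625.

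In order of level, Cbx7 was first of the 9 genes in haploinsufficient cells, followed by Suz12, Ezh1, Rnf2, Ezh2, Bmi1, Ring1, Cbx8 and Cbx6. In myosin IIa-deficient cells Suz12 came first, then Ezh1 and Cbx7, and the order of the other 6 genes was as in wt/fl. Relative to Suz12, Cbx7 was at 1.17 times its level in wt/fl and 0.666 times in fl/fl. Relative to Rnf2, the ratio was 1.91 in wt/fl and 1.27 in fl/fl. Without a spread between samples, neighbors in this order, such as Ezh1 and Cbx7 in fl/fl, cannot be separated.

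The rest of the Polycomb system was followed through 4 lists with 39 further genes, of which 33 had a mean of at least 1 FPKM. Past the limit of 1.5-fold lay 1 of the 33 genes, E2f6, which encodes a DNA-binding subunit of a variant PRC1. E2f6 was at 6.21 FPKM in wt/fl compared with 3.36 FPKM in fl/fl cells, giving a log2 ratio of −0.72. The share of all compared gene names past the limit was 2.32%, as above. It was 6.36% of those with a mean from 1 to 5 FPKM, the range of E2f6 (mean 4.78 FPKM). Over the 33 genes the median log2 ratio was −0.00074.

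Of the 8 other canonical PRC1 genes, 5 were compared and 0 lay past the limit. The most abundant encode the polyhomeotic proteins, which polymerize and link PRC1 complexes. Phc2 was at 32.2 FPKM in both genotypes. Phc3 was at 28.8 FPKM in wt/fl compared with 25.3 FPKM in fl/fl, and Phc1 at 11.0 and 11.8 FPKM. Pcgf2 and Scml2 were under 0.1 FPKM in both genotypes. Of the 16 variant PRC1 genes, 14 were compared. The most abundant were Usp7, a deubiquitinase gene (55.6 FPKM in both genotypes), Mga (36.6 and 36.2 FPKM) and Dcaf7 (35.1 and 34.3 FPKM). MGA and E2F6 belong to the same variant complex, and its PCGF subunit gene Pcgf6 was at 15.4 and 15.7 FPKM. Another 2 genes were named after their values were seen. Pcgf1 had the highest ratio of the list (10.7 and 14.9 FPKM, log2 ratio 0.44), and Yaf2 was at 5.28 and 3.82 FPKM (log2 ratio −0.38).

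All 8 other PRC2 genes were compared, and 0 of them lay past the limit. The most abundant were Rbbp7, a histone-binding subunit gene (56.6 FPKM in wt/fl compared with 68.1 FPKM in fl/fl), Eed, which encodes the subunit that reads methylated H3 (48.3 and 56.4 FPKM), and Jarid2, which encodes an accessory subunit (41.1 and 48.2 FPKM). By value 6 of the 8 were higher in fl/fl, and their median log2 ratio was 0.22, beside 0.0026 for all compared genes. Of the 7 genes whose products remove Polycomb marks, 6 were compared and 0 lay past the limit. Usp16, an H2A deubiquitinase gene, was at 51.3 and 56.8 FPKM, Asxl2 at 23.5 and 24.3 FPKM and the H3 demethylase gene Kdm6a at 25.3 FPKM in fl/fl, 115% of its wt/fl level. The HP1 genes Cbx1, Cbx3 and Cbx5 share the Cbx name and a chromodomain but encode heterochromatin proteins outside PRC1. Cbx1 was at 17.8 and 18.7 FPKM, Cbx3 at 146 and 153 FPKM and Cbx5 at 15.8 and 14.7 FPKM, all within the limit.

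**Figure D4:**
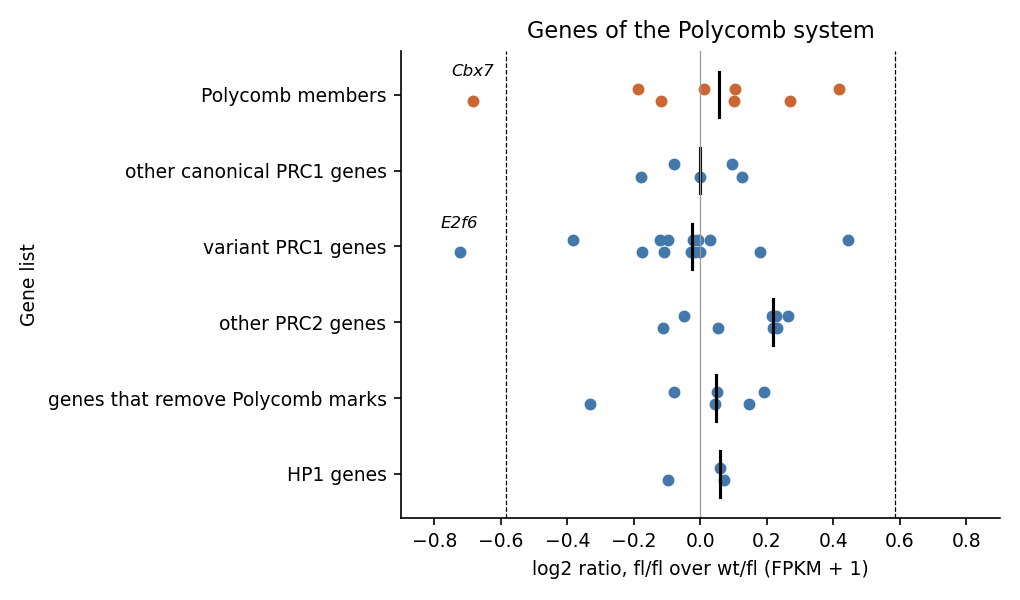
Log2 ratio of fl/fl over wt/fl (FPKM + 1) for each compared gene of 6 lists, with 1 point per gene, a black bar at the median of the list and dashed lines at 1.5-fold. Only Cbx7 (−0.68) and E2f6 (−0.72) lie outside the dashed lines, and the other PRC2 genes have the highest median (0.22).

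Cbx7, Cbx6 and Myh9 lie on the same chromosome, with 2.07 Mb between the end of Myh9 and the start of Cbx7 in the deposited positions. The genotypes differ in the number of floxed Myh9 alleles. For genes near Myh9, loss of myosin IIa and any sequence inherited with the floxed allele cannot be told apart in this design. Apart from Myh9 itself, 140 compared gene names lay within 5 Mb of Myh9, and 4 of them were past the limit, or 2.86%, beside 2.32% of all compared gene names. All 4 were lower in fl/fl, whereas smaller pseudocounts, or the most abundant entry of each gene, added genes in both directions. Cbx7 was 1 of them. Apobec3, which encodes a cytidine deaminase that restricts retroviruses, was at 160 FPKM in wt/fl compared with 56.9 FPKM in fl/fl cells (log2 ratio −1.47). St13, which encodes an HSP70-interacting protein, was at 110 and 69.9 FPKM (log2 ratio −0.65), and Adck5, a gene for a predicted kinase, at 2.07 and 0.0849 FPKM (log2 ratio −1.50). Over the 140 genes the median log2 ratio was −0.021.

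Apobec3 is the neighbor of Cbx7, and 7376 bases separate their deposited positions. In the GENCODE M21 annotation of GRCm38 the 2 genes lie on opposite strands and overlap by 100 bases at their ends. The kit named in the labels was not stated to keep the strand, so fragments from an overlap or from transcription past a gene end could not be assigned by strand. Apobec3 has 2 entries that went in opposite directions. The larger was at 156 FPKM in wt/fl compared with 47.7 FPKM in fl/fl, and the smaller was at 3.36 and 9.18 FPKM. Its smaller entry made 2.11% of the gene in wt/fl and 16.1% in fl/fl. Of the 10 compared genes nearest in order to Cbx7, 5 on each side, the other 9 had log2 ratios between −0.11 and 0.19. Rpl3, a ribosomal protein gene and the next compared gene on the far side of Cbx7, named after its values were seen, was at 1012 FPKM in wt/fl compared with 1158 FPKM in fl/fl. Thus Apobec3 and Cbx7 lay past the limit and these 9 genes within it. Whether fragments of Apobec3 contributed to the value of Cbx7 was not tested.

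**Figure D5:**
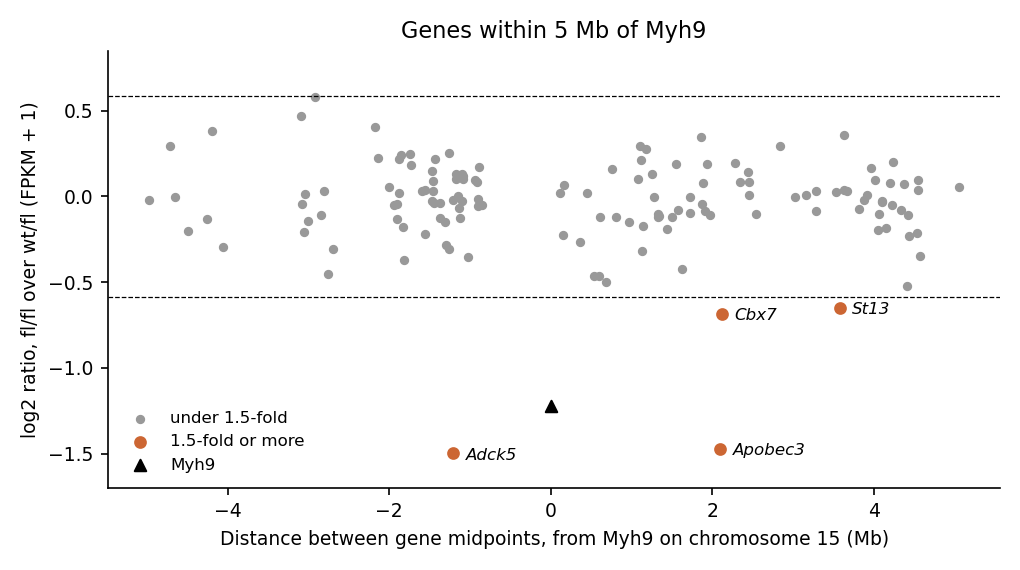
Log2 ratio of fl/fl over wt/fl (FPKM + 1) of the 140 compared genes within 5 Mb of Myh9, against the distance between gene midpoints in Mb, with Myh9 as a triangle at 0. Orange points lie past 1.5-fold (dashed lines). Cbx7 and Apobec3 sit side by side at about 2.1 Mb, at −0.68 and −1.47.

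Genes that Polycomb complexes keep silent in most tissues were looked at as a readout. Of 51 such genes, 22 were listed at 0 in both genotypes, 16 were listed at 0 in 1 genotype and 50 had a mean under 1 FPKM. Most of the 16 were at 0 in wt/fl and the rest in fl/fl. Of all 20458 gene names, 3201 were at 0 in both genotypes, 2715 at 0 in 1 genotype and 10579 had a mean under 1 FPKM. Hoxb4, a homeobox gene, was the only gene of the list that could be compared, at 1.51 FPKM in wt/fl compared with 1.84 FPKM in fl/fl (log2 ratio 0.18). Cdkn2a was listed at 0 in both genotypes, and the adjacent Cdkn2b was listed at 0 in wt/fl and at 0.174 FPKM in fl/fl. Such a low value has no stated precision, so nothing is read from it. Over all entries, 6262 were at 0 in wt/fl compared with 5032 in fl/fl. Ezh2 is known to follow cell division, so proliferation and germinal center genes were set beside it. Of 15 proliferation genes, 12 were compared and 0 lay past the limit. By value 9 were lower in fl/fl and 3 were higher. Mki67, a gene of cycling cells, was at 2.69 FPKM in wt/fl and at 55.8% of that level in fl/fl. Ccnb2 was at 2.11 and 1.12 FPKM, whereas Tyms, a gene of nucleotide synthesis, was at 1.38 and 2.43 FPKM. These 3 genes were named after their values were seen. Without the added 1 FPKM, all 3 differed by more than 1.5-fold, so the count of 0 depends on the pseudocount. Mcm3 was at 15.3 and 15.2 FPKM and Pcna, the most abundant of the list, at 95.9 and 94.6 FPKM. Of 8 germinal center genes, 3 were compared and Fas was past the limit, at 4.43 and 7.19 FPKM (log2 ratio 0.59). Bcl6, also expressed in follicular B cells, was at 48.4 and 60.0 FPKM.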

How the data were processed

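RNA was isolated with TriZol and RNEasy, amplified with Ovation RNA-Seq V2 and made into TruSeq Nano libraries, per the labels. The submitters' processing notes name Bowtie, TopHat and Cufflinks and the builds mm10 and GRCm38, with no tool versions. The deposited positions are those of mm9, since 118 entries lie on random sequences named as in mm9 and the positions of Myh9 and Cbx7 differ from GRCm38. None were converted. The authors deposited 1 FPKM value per entry and genotype, in the layout of Cuffdiff, pooled over 3 samples. The table also holds their own fold changes, test statistics, p-values and q-values, which were not used. Depth per sample is unknown.

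FPKM was summed over the entries of each gene name, and log2((fl/fl + 1)/(wt/fl + 1)) was computed for names with a mean of at least 1 FPKM (Python 3.11.15, pandas 2.3.3, numpy 2.4.6, matplotlib 3.10.9). Another 25 names that a spreadsheet had turned into dates were left out. The limit for a count was 1.5-fold. The arithmetic was checked on values made from the wt/fl levels with known folds and no noise. Recovery was fixed by the formula, so the check says nothing about the reliability of the counts. The named genes were Myh9, the 9 Polycomb genes, in each list genes past 1.5-fold and the 3 most abundant (2 for marker lists, which are mostly given by sums), and genes past 1.5-fold within 5 Mb of Myh9. Others were named after their values were seen. Members and lists were chosen with earlier results of these data known. Promoters are from RefSeq on GRCm38.p6 and gene models from GENCODE M21. Alternatives were pseudocounts of 0.1 and 0.5, no filter or a mean of at least 5 FPKM, upper quartile and median of ratios scaling, a limit of 2-fold, a window of 3 Mb and the most abundant entry of a gene. Some genes of the lists enter the counts and sums but are not reported here by name.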

Additional observations from a re-analysis of the deposited data

How the results depend on the processing

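The log2 ratio of Cbx7 stayed between −0.70 and −0.69 under both other pseudocounts and both scalings, past 1.5-fold in each. The median of the Polycomb genes ranged from 0.0095 to 0.10 under 7 alternatives. The number of Polycomb genes past the limit was 2 with no filter on FPKM, Cbx6 being the second, and 0 at a limit of 2-fold. Among the 39 other Polycomb genes it was 0 with a mean of at least 5 FPKM, where E2f6 is no longer compared, and 0 at a limit of 2-fold. Near Myh9 the number was 11 with a pseudocount of 0.1, 8 with 0.5, 2 at a limit of 2-fold and 7 with the most abundant entry of each gene, an alternative chosen after seeing the data. Cbx7 and Apobec3 are among the 11, the 8 and the 7, and the 2 are Adck5 and Apobec3. Of the 11, Jrk and 2010109I03Rik were higher in fl/fl, as were 2010109I03Rik of the 8 and Slc45a4 of the 7. With the first 3 settings 414, 308 and 49 of the 9866 compared gene names lay past the limit, and 301 of 9820 with the last. Cbx6 moved to −1.49 with a pseudocount of 0.1. Both scalings moved the median of all genes by under 0.02 on the log2 scale. No paired analysis was possible because the samples of each genotype were pooled, and for the same reason no replicate could be left out. Depth is unknown, so the lowest levels, such as those of Cbx6 and Adck5, have no stated precision.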
